A study of Drosophila melanogaster with 2 samples.

Results

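The ecdysone receptor and the early response genes are 9 genes chosen by name: EcR, usp, Eip74EF, Eip75B, br, Eip78C, Hr3, Hr4 and ftz-f1. They are 9 of 13945 protein-coding genes on 6 chromosome arms. Binding of CG6813, a zinc finger protein, at these genes was read from ChIP-seq region lists of whole Drosophila melanogaster embryos, male and female pooled, aged 0 to 24 h. The line is transgenic and stably carries CG6813 fused at its C-terminus to GFP, which an antibody against GFP precipitated. The study has 1 group of 2 biological replicates, numbered 2 and 3, with no second condition. Positions are given in dm6, counted from 1. Embryos of all these ages were pooled, so binding in any one stage or tissue cannot be told apart from binding in others.

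Ecdysone is the steroid hormone that times insect development, with a pulse in the embryo and larger ones before each molt and at metamorphosis. It acts through a pair of nuclear receptors, EcR and its partner ultraspiracle (usp), which bind DNA together and switch on a small set of early genes. The early genes encode transcription factors, some of them nuclear receptors themselves, which in turn set the timing of later genes. Most of these genes are long, with several alternative starts that give different protein isoforms.

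A thresholded summit, the point of highest signal in a peak of the authors' final list of 5012, lay inside or within 5 kb of 8 of the 9 genes. Over all protein-coding genes that share was 44.1%, over those spanning 20 kb or more 69.1%, and over those of 30 to 120 kb, a class added after the spans had been seen, 70.3%. The 8 genes with a summit were the 8 that span 20 kb or more. The exception was usp, which spans 3514 bp. The 8 genes held 43 summits, and 6 genes held at least 4 each, against 23.4% of genes of 20 kb or more and 25.2% of genes of 30 to 120 kb. Eip75B held 15, Hr4 8, EcR 6, and Eip74EF, Hr3 and ftz-f1 4 each, while br and Eip78C held 1 each. Summits numbered 6.84 per 100 kb at the members (gene and 5 kb on each side), 3.67 at genes of 20 kb or more and 3.74 over all arms. These counts were not tested, because the genes were chosen with results of these data known.

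The signal that the authors deposited for each peak ranked the genes by their strongest summit in the order Hr3, Hr4, Eip75B, EcR, br, Eip74EF, ftz-f1, Eip78C. The strongest summit of Hr3 had a signal of 1104 in the pooled list, 811 in replicate 2 and 295 in replicate 3. Hr4 had 978 in the pooled list, 694 in replicate 2 and 291 in replicate 3. Eip75B had 768 pooled, 489 in replicate 2 and 272 in replicate 3. The order of these 3 genes and of EcR, which came next, was the same in both replicates when each replicate's strongest region was taken. Hr3 and Hr4 were nearly level in replicate 3. Below EcR, Eip74EF took place 5 in replicate 2 and place 8 in replicate 3, so its place is not settled. The genes br, ftz-f1 and Eip78C kept this order among themselves in both replicates. In replicate 3, ftz-f1 and Eip78C were close, at 95.6 and 91.4.

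**Figure D1:**
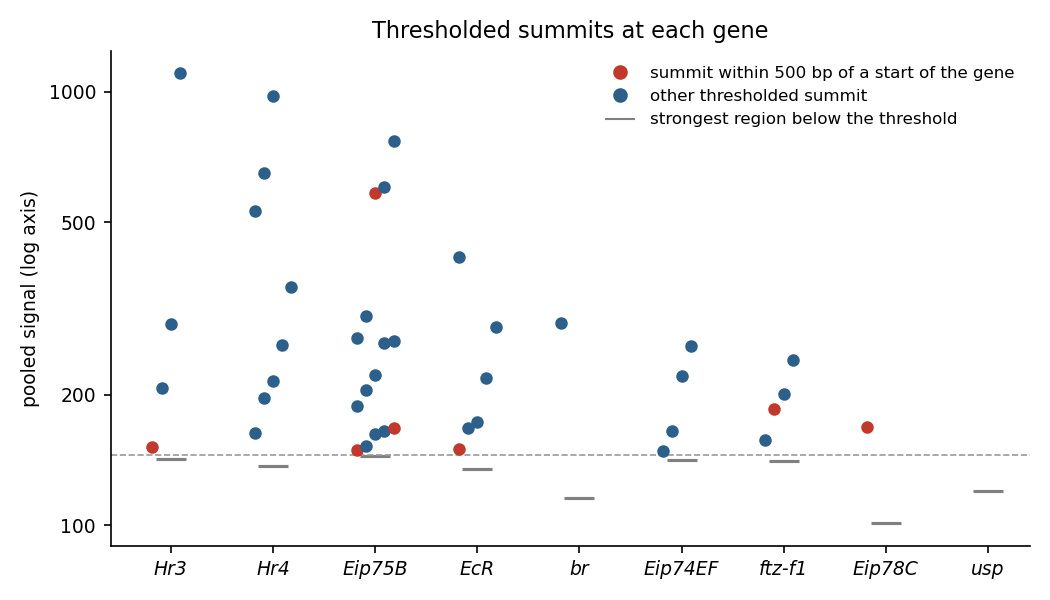
Pooled signal (log axis) of each thresholded summit, by gene, ordered by the strongest summit. Red points lie within 500 bp of a start of the gene, blue points elsewhere, grey bars show the strongest region below the threshold and the dashed line the lowest thresholded signal, 145.7; Hr3 and Hr4 reach 1104 and 978 at summits away from their starts, and usp has no point above the line.

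Promoter summits, within 500 bp of an annotated start of the gene itself, were found at 5 of 9 genes: EcR, Eip75B, Eip78C, Hr3 and ftz-f1. The shares were 14.8% over all protein-coding genes, 30.5% over genes of 20 kb or more and 32.1% over genes of 30 to 120 kb. Of the 7 summits at these starts, 6 had a signal of 149 to 186, near the lowest thresholded signal of 145.7, and among the strongest 2506 thresholded peaks 1 gene, Eip75B, kept a promoter summit. Counted by start, with starts up to 100 bp apart joined, 7 of the 33 starts of the members had a summit (21.2%), and 7 of the 31 starts of the 8 long members (22.6%), against 16.5% of the starts of genes of 20 kb or more. By feature, 35 of 43 member summits lay in an intron, 4 in a 5′ UTR, 1 in a 3′ UTR, none in a coding exon and 3 outside the gene. Intronic summits include those 69 bp from a start of EcR and 146 bp from a start of Hr3. Inside another gene lay 9 of the 43. These feature counts are not set against other peaks or genes of like length. Within 500 bp of a start of any gene lay 10 of 43 (23.3%, exact 95% interval 11.8% to 38.6%, counting error only), against 2023 of 4969 other thresholded peaks (40.7%). Among the strongest 2506 peaks it was 1 of 19 at the members (5.26%), against 1071 of 2487 other peaks (43.1%). The interval treats the 43 summits as independent, though they cluster in 8 genes, with 15 of them at Eip75B. The other peaks were not limited to genes of 20 kb or more, as the member summits were, so neither share is matched for gene length. The nearest start of any gene belonged to the member for 29 of 43 summits, and 24 lay over 5 kb from the nearest start of their own gene. Neither count is set against other peaks or genes of like length, so whether either is unusual is not known. The median signal of the 43 summits was 219, against 227 in the other thresholded peaks.

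Eip75B encodes E75, a nuclear receptor that binds heme. It spans 113744 bp on chromosome arm 3L (positions 17950953 to 18064696, minus strand) and held 15 summits, more than all but 5 protein-coding genes. CG1677 held 19, kirre 18, px 17, and sbb and shn 16 each. These counts are not corrected for length. Per 100 kb, Eip75B had 12.1 summits, fewer than CG1677 (14.1), px (21.9), sbb (18.0) and shn (23.4) and more than kirre (4.45). Of the 7 starts of Eip75B, 3 had a thresholded summit. The summit 33 bp downstream of the start of Eip75B-RC had a signal of 583 pooled, 387 in replicate 2 and 191 in replicate 3. Those at Eip75B-RD (168 pooled, 44 bp) and Eip75B-RA (149 pooled, 10 bp) were far weaker. At Eip75B-RA the 2 replicates differed more than at the other 2, with 113 in replicate 2 and 29.6 in replicate 3. The pooled list held no region within 500 bp of Eip75B-RF or Eip75B-RG, and only 52.3 and 47.2 at Eip75B-RE and Eip75B-RB. The 4 starts nearest the 5′ end of the gene carried no thresholded summit, and each of the 3 nearest its 3′ end did.

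The strongest summit of Eip75B, at position 18029785 in an intron, was 3753 bp upstream of Eip75B-RG, with a signal of 768 and rank 259 of 5012. A second intronic summit, at 18019811, had 605. Sequence is shown of the bases before each start with a summit, and of the strongest intronic summit. The summits at these starts lie downstream of them, so the bases printed before the starts do not contain the summits. Capitals mark matches to the motifs searched: GAGAGAG for GAGA factor and CLAMP, CACACAC for a CA repeat, TATCGATA for the DRE, CAGGTAG for Zelda, AGGTCA for nuclear receptors and CAAGGTCA for the ftz-f1 protein, on either strand. The AGGTCA motif is also the end of the longer CAAGGTCA motif.
before Eip75B-RC, chr3L:17999822-17999971, minus strand: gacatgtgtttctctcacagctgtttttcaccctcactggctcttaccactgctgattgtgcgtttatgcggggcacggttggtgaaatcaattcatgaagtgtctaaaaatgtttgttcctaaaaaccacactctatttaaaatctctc
before Eip75B-RA, chr3L:17971440-17971589, minus strand: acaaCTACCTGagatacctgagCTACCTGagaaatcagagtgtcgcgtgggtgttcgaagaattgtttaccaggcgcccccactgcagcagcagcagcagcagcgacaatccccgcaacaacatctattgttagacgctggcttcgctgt
before Eip75B-RD, chr3L:17961815-17961964, minus strand: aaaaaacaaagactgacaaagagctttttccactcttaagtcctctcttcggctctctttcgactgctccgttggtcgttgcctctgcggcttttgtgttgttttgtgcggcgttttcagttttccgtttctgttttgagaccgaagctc
strongest intronic summit, chr3L:18029685-18029885, plus strand: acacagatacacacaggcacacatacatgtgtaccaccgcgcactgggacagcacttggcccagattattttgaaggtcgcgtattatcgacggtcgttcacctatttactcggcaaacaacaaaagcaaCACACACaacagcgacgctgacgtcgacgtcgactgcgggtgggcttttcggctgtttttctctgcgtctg
The bases before Eip75B-RA held CAGGTAG, the site of the early embryonic factor Zelda, as CTACCTG on the printed strand at 2 places. Of all 18922 windows before starts of protein-coding genes, 1.01% held it. Both places lie outside the 100 bp on each side of the summit at this start, a window with no searched motif. The strongest intronic window held CACACAC, as did 9.38% of all summit windows.

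**Figure D2:**
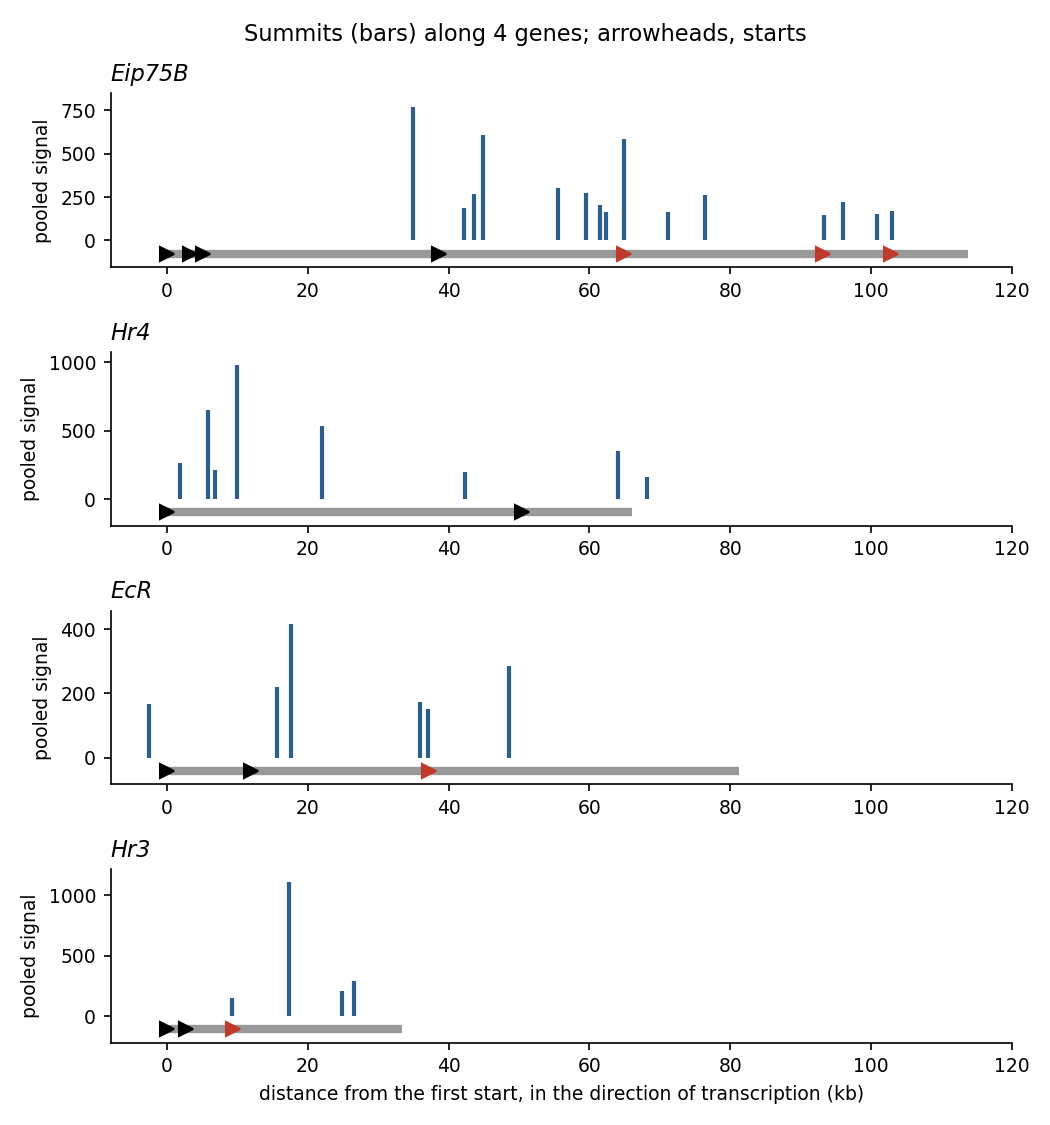
Pooled signal of each thresholded summit (bars) against distance from the first start, in the direction of transcription (kb), along Eip75B, Hr4, EcR and Hr3. Grey bars are the genes and arrowheads their starts, red where a thresholded summit lies within 500 bp; in Eip75B the 3 red arrowheads are the 3 starts nearest the 3′ end, and Hr4 has none.

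Eip74EF encodes E74, an ETS-domain transcription factor and a classic early gene. It lies on 3L (17558672 to 17619325, minus strand), and its 4 summits were all intronic and none lay within 5 kb of a start. The strongest, at 17567044, had a signal of 259 pooled, 216 in replicate 2 and 52.8 in replicate 3, the widest relative gap between replicates among the strongest summits of the 8 genes. The other 3, at 17611315, 17611576 and 17614232, had 221, 149 and 165. The window of the strongest summit is printed because it holds AGGTCA, the half-site that nuclear receptors bind, as TGACCT.
strongest summit of Eip74EF, chr3L:17566944-17567144, plus strand: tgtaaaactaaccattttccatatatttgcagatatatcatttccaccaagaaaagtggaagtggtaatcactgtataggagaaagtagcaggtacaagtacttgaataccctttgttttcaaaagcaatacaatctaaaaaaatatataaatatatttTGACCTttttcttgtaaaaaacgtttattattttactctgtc
AGGTCA was present in 3 of 43 member windows (6.98%), against 3.55% of all thresholded windows and 4.50% of pooled windows below the threshold. The inverted repeat that the EcR and usp pair binds, AGGTCA in both orientations with 1 base between and at most 2 of 12 fixed bases different, was in 0 of 43 member windows and 0.219% of all.

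The br gene (Broad, a BTB zinc finger factor) has 7 joined starts over 89738 bp on X (1575132 to 1664869, plus strand). None had a pooled region within 500 bp. Replicate 3 held weak regions there at br-RH (24, rank 23609) and br-RI (21.1, rank 29828), and replicate 2 held none. The 1 thresholded summit of br, at 1618886, had a signal of 294 pooled, 183 in replicate 2 and 110.2 in replicate 3. It lay in an intron 3422 bp upstream of br-RS, inside Mur2B, whose start was nearest at 731 bp.
summit in br, chrX:1618786-1618986, plus strand: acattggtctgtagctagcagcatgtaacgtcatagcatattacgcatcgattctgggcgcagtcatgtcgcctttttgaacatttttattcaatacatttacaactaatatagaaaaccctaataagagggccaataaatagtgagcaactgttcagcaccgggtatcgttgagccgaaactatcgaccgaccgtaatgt
No searched motif matched there. At 1.0 summits per 100 kb, br was the sparsest of the 8 genes, against 12.1 for Eip75B.

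Eip78C encodes E78, another nuclear receptor, on 3L (21226609 to 21266503, plus strand). Its 1 summit lay 88 bp downstream of Eip78C-RB, in a 5′ UTR, with a signal of 168 pooled, 82.3 in replicate 2 and 91.4 in replicate 3. It was 1 of 3 member summits with a lower signal in replicate 2. The other 2 joined starts had a pooled signal of 47.7. The bases before Eip78C-RB, which do not contain the downstream summit, had no match.
before Eip78C-RB, chr3L:21240197-21240346, plus strand: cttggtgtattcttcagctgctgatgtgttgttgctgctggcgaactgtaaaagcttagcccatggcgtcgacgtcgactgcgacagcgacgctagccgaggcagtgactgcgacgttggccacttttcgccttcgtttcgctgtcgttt

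Hr4 encodes a nuclear receptor of the early-late class, on X (1941940 to 2007956, plus strand). None of its 8 summits lay within 500 bp of either of its starts, where the pooled list held 54.6 and 71.9. The strongest, at 1951940, was 10000 bp downstream of the first start, and the nearest start of any gene was that of CR46447, 2540 bp away. Further summits at 1947762 and 1963945 had 651 and 532. The summit at 1963945 had 433 in replicate 2 and 102.5 in replicate 3, the highest log2 ratio of the 43, 2.08. A summit at 2006027 in the 3′ UTR had 354 and was nearest to the start of PIG-K. Another, at 2010105 with 163, lay 2149 bp outside Hr4, inside lncRNA:CR45478 and 148 bp from its start.
strongest summit of Hr4, chrX:1951840-1952040, plus strand: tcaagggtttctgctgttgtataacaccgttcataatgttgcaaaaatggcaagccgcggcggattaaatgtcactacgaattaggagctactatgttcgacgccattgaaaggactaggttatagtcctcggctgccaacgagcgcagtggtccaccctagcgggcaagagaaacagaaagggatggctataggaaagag
No searched motif matched in this window.

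The ftz-f1 gene, a nuclear receptor that makes later tissues able to respond to ecdysone, lies on 3L (18750607 to 18801309, minus strand). Its summits had 240.1, 201, 186 and 157 pooled. The summit 98 bp upstream of ftz-f1-RB had 99.5 in replicate 2 and 95 in replicate 3, and its nearest start was that of lncRNA:CR45939, 95 bp away. The intronic summit at 18772020 had 53.1 in replicate 2 (rank 12131 of 30000) and 95.6 in replicate 3 (rank 1672), the lowest log2 ratio of the 43, -0.85.
before ftz-f1-RB, chr3L:18801310-18801459, minus strand: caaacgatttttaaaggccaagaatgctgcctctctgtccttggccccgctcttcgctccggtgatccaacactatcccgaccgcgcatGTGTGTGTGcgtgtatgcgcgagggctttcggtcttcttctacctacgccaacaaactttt
strongest summit of ftz-f1, chr3L:18789668-18789868, plus strand: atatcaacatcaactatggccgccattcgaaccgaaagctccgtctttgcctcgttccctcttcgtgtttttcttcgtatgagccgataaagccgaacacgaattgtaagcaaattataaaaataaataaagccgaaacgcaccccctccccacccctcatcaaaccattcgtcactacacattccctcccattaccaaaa
The bases before ftz-f1-RB held the CA repeat, as GTGTGTG.

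Hr3, a nuclear receptor that activates ftz-f1, lies on 2R (10203995 to 10237348, minus strand). Its strongest summit, at 10220044 and rank 100 of 5012, was intronic, 7913 bp downstream of the start of Hr3-RA, Hr3-RF and Hr3-RH, and inside CG12912 and CG46321. The only start with a summit, 146 bp upstream, was that one, at 152 pooled, 114.7 in replicate 2 and 46.2 in replicate 3, and CG46321 shares it. The other 2 summits, at 10210772 and 10212538, had 291 and 208, and were nearest to lncRNA:CR46322.

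EcR, the hormone-binding receptor, lies on 2R (6087873 to 6169087, minus strand). Its strongest summit, at 6151427 in an intron, had 417 pooled, 232 in replicate 2 and 168 in replicate 3, and lay 1249 bp from tRNA:Asn-GTT-1-1. Of its 3 starts, that of EcR-RB, EcR-RC and EcR-RG had a summit 69 bp upstream, with 150.3 pooled, 101.1 in replicate 2 and 59.0 in replicate 3, close to the lowest thresholded signal. Just below the threshold, the start of EcR-RD and EcR-RE had 135 pooled. Also nearest to tRNA genes were 2 weaker summits, 54 bp from the start of tRNA:Asn-GTT-1-3 inside the gene and 53 bp from tRNA:Arg-ACG-1-4 outside it, with 219 and 168.

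The partner receptor usp (X, 2038798 to 2042311, minus strand) had 8 pooled regions within 5 kb and no thresholded one. The strongest, 168 bp upstream of usp-RA, had 120.1 pooled (rank 6686 of 30000) and 114 in replicate 2 (rank 4031), with no replicate 3 region within 200 bp. At usp-RB, whose start lies beside one of Actn, the pooled value was 88.5. The nearest thresholded summit was 7962 bp away, with 1171.

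Every one of the 43 summits had a region within 200 bp in both replicates, as did 98.3% of all thresholded peaks. Signal was higher in replicate 2: the median log2 ratio of replicate 2 over replicate 3 was 1.05 at the members and 1.13 at the other thresholded peaks. In the strongest 5012 regions of both replicates were 27 of 43 (62.8%), against 69.3% of the other peaks. The ratio compares deposited values whose scale in one list against another is unknown.

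**Figure D3:**
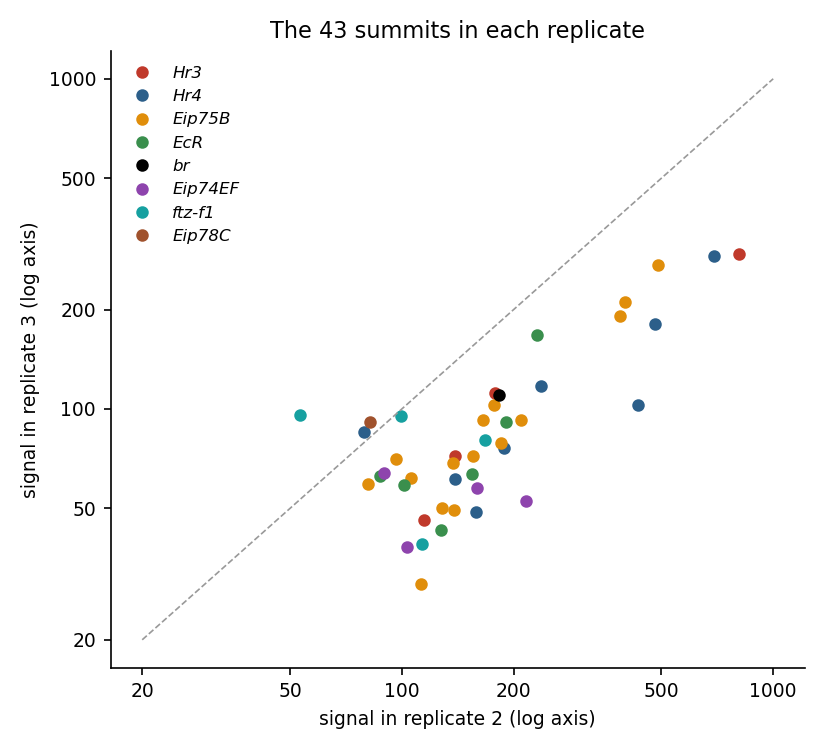
Signal of the 43 member summits in replicate 3 (vertical log axis) against replicate 2 (horizontal log axis), coloured by gene; the dashed line marks equal values. Of the points, 40 lie below the line, with the higher signal in replicate 2, and 3 lie above it, in ftz-f1, Eip78C and Hr4.

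Over the windows of 100 bp on each side of the 43 summits, GAGAGAG occurred in 5 (11.6%), against 6.28% of all thresholded windows. The CA repeat occurred in 6 (13.95%), against 9.38%. For both motifs most of the member windows with a match were at Eip75B, which held 15 of the 43 summits. The member shares therefore rest largely on that gene. In pooled windows below the threshold the share was 4.60% for GAGAGAG and 10.6% for the CA repeat. The motifs TATCGATA and CAGGTAG were in 0 of 43, against 1.70% and 1.16% of all, and the longer motif of the ftz-f1 protein was in 0 of 43, against 0.259%. Median GC content was 43.3% in the member windows and 37.3% in all. A window without a match says only that these letters are not in it. Of all pooled regions at the members, 43 of 248 (17.3%) were thresholded, against 16.7% over all arms.

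Other ecdysone genes were read as 4 lists of 51 genes, of which 32 (62.7%) had a thresholded summit inside or within 5 kb, against 44.1% of all protein-coding genes. Among the list genes of 20 kb or more, 9 of 13 had one, near the 69.1% of all genes of that length, and the shorter list genes were not set against genes of like length. Of 14 other nuclear receptors, 10 had one, with 576 at Hr51, 485 at Hr96, 470.4 at Hr78 and 414 at Hnf4; the Hr51 and Hr96 summits were nearest to lncRNA:CR44371 and EMC6. Of 18 other ecdysone-induced genes, 12 had one, led by MsrA (1376), E23 (975), Hsp27 (903) and Ldh (807); the MsrA summit was nearest to CG7841. Of 7 genes for cofactors and a membrane receptor, 5 had one, with 556 at Smr, 555 at trr, 338 at tai and 179 at DopEcR; the summits of the first 3 were nearest to starts of other genes. Of 12 genes of synthesis, uptake and breakdown, 5 had one (41.7%), near the 44.1% of all protein-coding genes. The importer Oatp74D had 770.1, at a summit nearest to CG6333, and the enzyme genes sad, sro and shd had 251, 179.9 and 179.8, all nearest to another gene.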

How the data were processed

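The authors deposited region lists for replicate 2, replicate 3, both pooled (30000 regions each) and a thresholded list (5012), each region with a signal value; per the listing deposited with the samples, regions were called against a control and the thresholded list is the optimal set of a reproducibility step. For the aligner, caller, cutoff and signal normalization, nothing is stated in these sources, and depth is unknown. Replicate 1 and the control were not analysed here. Only the dm6 lists were used, with BDGP 6.54 gene models and the RefSeq sequence. Summits were assigned to genes in Python 3.11.15 (numpy 2.4.6) by the rules stated with the results; ranks are by signal within a list. The script was tested on simulated data. No significance test was run, and no p-value is given. The members and lists were chosen with earlier results of these data known. Named were all members, at most 4 genes per list by signal, genes nearest to a member summit and the 5 genes with most summits. The 30 to 120 kb class was added after the spans were seen, and the promoter share of other peaks in the strongest 2506 after the data were seen. Motif shares come from 100 bp on each side of summits; at starts the 150 bp before the start are printed instead, chosen after those windows were found to enter 5′ UTRs.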

Additional observations from a re-analysis of the deposited data

How the results depend on the processing

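No paired analysis was possible because the samples form 1 group and no result comes from a test. Of 53 recomputed values, 44 stayed within the spread set for them, 9 moved and 0 reversed. Keeping only the strongest 2506 thresholded peaks left 19 summits, 1 gene with a promoter summit, a promoter share of 5.26%, a median signal of 303, 19 summits in both replicates and 11 nearest to a start of the member; fewer peaks lower the counts by construction. The pooled list gave 248 summits in place of 43. Leaving out a replicate gave a median signal between 76.0 and 156, on that replicate's own scale, between 43 and 47 summits, 8 genes, and 4 or 5 genes with a promoter summit. Without replicate 3, usp gained 1 summit and Eip78C had none. With 10 kb around each gene, all 9 genes had a summit. Signal values carry no counts, so the depth behind a missing region, as in the pooled list at br starts, is unknown.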
